A study of Mus musculus with 12 samples.

Results

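The comparison described here set 3 whole uteri of mice labelled as in diestrus against 3 whole uteri of mice labelled as in estrus, 6 of the 12 uteri of a series that covered the estrous cycle. Members were chosen by the cycle stage label alone, and no expression value entered the choice. The animals were female wild-type mice of the outbred Swiss Webster stock, 8 to 12 weeks old per the series' design text. No treatment is named for either stage. How the stage was determined, the hour of dissection and any processing batch are not given in the labels. In the mouse the stages follow each other as proestrus, estrus, metestrus and diestrus, and the other 6 uteri (3 in metestrus and 3 in proestrus) served to share the estimate of spread and as another pair of opposite stages.

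The uterine wall holds a luminal epithelium with glands, a stroma of fibroblasts, vessels and leukocytes, and an outer layer of smooth muscle. Ovarian estrogen, which peaks before estrus, acts through the receptor ESR1 to drive epithelial growth, secretion of antimicrobial proteins and fluid, and the arrival of leukocytes. Progesterone from the corpora lutea, active in diestrus, acts through PGR, which in the epithelium induces Indian hedgehog. Hedgehog protein then signals to the stroma through Patched and GLI1, a relay known from work on the preparation of the uterus for implantation.

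Polyadenylated RNA was read by 3' TagSeq, which sequences tags from transcript ends, so longer transcripts do not gain counts by their length. The totals lay between 1726135 estimated counts (diestrus replicate 5) and 2200563 (estrus replicate 5). Levels are given as CPM, a gene's counts relative to the TMM-scaled total of its library, in the order of replicates 3, 4 and 5. A difference is diestrus minus estrus on the log2 scale with its standard error, and a gene is called when the Benjamini-Hochberg adjusted p of the edgeR quasi-likelihood test over all 12052 genes tested is under 0.05. A count of 3, the limit that a count of 0 allows in a library, was worth between 1.37 and 1.86 CPM in these 6 libraries. Uteri of a stage correlated at 0.939 to 0.956 over log2 CPM of all tested genes (across genes, which are not independent), and diestrus with estrus uteri at 0.838 to 0.87. Defining markers of uterine smooth muscle (Myh11), epithelium (Krt8) and stroma (Hoxa10) were present in all 6 uteri, at the levels given below. In whole tissue, fewer cells of a type and less RNA per cell cannot be told apart.

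Diestrus and estrus differed in 2744 genes, 22.8% of those tested, of which 1172 (9.72%) were higher and 1572 (13%) lower in diestrus. The lower genes also moved further, with a median of -1.14 against 0.94 for the higher genes. At least 2-fold differences were called for 1456 genes (12.1%), 543 higher and 913 lower, and at least 8-fold differences for 41 higher and 147 lower genes. The 3 diestrus values lay above all 3 estrus values in 20.6% of the tested genes and below them in 22.4%, and 2718 of the 2744 called genes had groups that did not overlap. The median difference over all tested genes was 0.000676. With library totals in place of TMM factors the median was 0.0679 and 1359 genes were higher and 1273 lower, so the excess of lower over higher calls depended on the scaling.

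**Figure D1:**
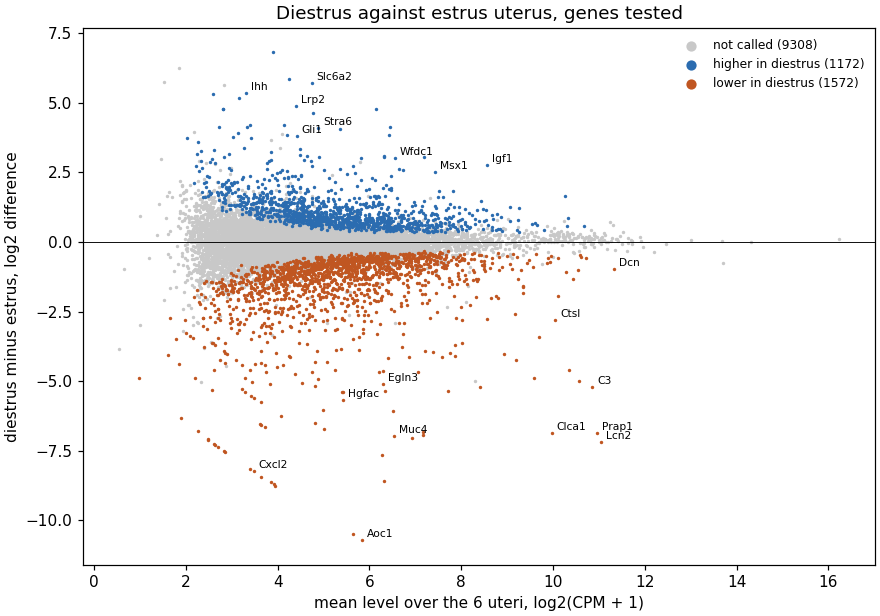
Each point is 1 tested gene, with its mean level over the 6 uteri on the x axis (log2 of CPM + 1) and its diestrus minus estrus difference on the y axis (log2). The 1172 called higher genes extend less far from 0 than the 1572 called lower genes, among which Aoc1 differs most.

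Counts of some named genes are uncertain because their transcripts share 31-base words with transcripts of other genes in the annotation, on either strand. The share was 53% for Tubb4b, 36% for Krt8, 33.9% for Hoxa11, 33.2% for Ctsd, 31.8% for Padi1, 30.5% for Hspe1, 29.4% for Cycs, 28.2% for Ctsl, 25.8% for H2-T23, 23.3% for Pcna, 22.4% for Nop56, 22.4% for Prap1, 22.3% for Ccnd1 and 21.4% for Ankrd37. It lay between 5% and 17.4% for Akr1b3, Atp1b1, Atp5g1, Ccna2, Cd55, Cdc45, Cdkn1a, Cox6c, Csf1r, Cxcl2, Dbp, Eif4ebp1, Elf3, Gli1, Greb1, Hand2, Hif1a, Hsp90b1, Ifit1, Igfbp4, Lef1, Mmp7, Muc4, Ncl, Nr1d1, Nr2f2, Pim1, Prom1, Ptgis, Rspo3, Sox17, Spp1, Sprr2f, Tmprss4, Tpi1 and Txnip. Exons of Bhlhe40, Dkc1, Foxl2, Fst, Hhip, Lox, Ncoa3, Nid1 and Ptgfr overlap a gene on the other strand by position. Whether the counting used the strand is not given in the sources used here, so reads of such pairs cannot be told apart.

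Several genes with ample counts in estrus had none in diestrus. Aoc1 (ENSMUSG00000029811, chromosome 6, 48872896 to 48909188), diamine oxidase, which breaks down histamine and putrescine, had 0 counts in each of the 3 diestrus uteri and 99, 61.8 and 178 CPM in estrus, at least 228-fold lower in diestrus (adjusted p = 5.93e-05). Il1f6 (ENSMUSG00000026984, chromosome 2, 24215418 to 24225702), the cytokine interleukin-36 alpha, likewise had 0 counts in diestrus and 55.1, 164 and 75.1 CPM in estrus, at least 188-fold lower (adjusted p = 0.00106). Other genes with 0 counts in all diestrus libraries were Hsd17b2, an enzyme that oxidises estradiol to estrone (estrus 11.8, 22.3 and 22.9 CPM, at least 37.6-fold), and Slc26a4, the anion exchanger pendrin (estrus 11.1, 9.15 and 16.9 CPM, at least 24.7-fold). So were Fam3b and Scgb3a1, small secreted proteins, at 14.2, 6.29 and 12.4 and 13.6, 6.29 and 11.4 CPM in estrus. The floor behind each of these bounds is 3 counts over the diestrus group. The smallest p-values belonged to the survival gene Ier3, the membrane protease gene Tmprss4 and the epithelial surface gene Prom1, each at an adjusted p of 6.28e-07, followed by the calcium channel Trpv6 and the protein-modifying enzyme Padi1 (3.99, 4.45 and 2.83 against 150.3, 113 and 208 CPM). Pim1, a survival kinase, stood at 39.9, 32.6 and 42.4 CPM in diestrus against 172, 189 and 193 in estrus (-2.27 ± 0.16), and Tmem173, the cytosolic DNA sensor adaptor STING, at 18.9, 18.3 and 13.6 against 116, 91.5 and 109 (-2.63 ± 0.22).

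Genes higher in diestrus with the largest differences or the smallest p included transporters, secreted proteins and transcription factors. Slc6a2 (ENSMUSG00000055368, chromosome 8, 92960079 to 93001667), the noradrenaline transporter, measured 34.4, 61.8 and 56.6 CPM in diestrus and 1.24, 0.572 and 0.916 in estrus, a difference of 5.72 ± 1.07 (adjusted p = 0.00213; 0.0671 with limma-voom). Lrp2 (ENSMUSG00000027070, chromosome 2, 69424340 to 69586065), the endocytic receptor megalin, measured 36.4, 56.4 and 23.8 against 2.47, 1.14 and 0.458 CPM (4.86 ± 0.8, adjusted p = 0.000872). Pkdcc, a secreted protein kinase, stood at 131, 141 and 215 against 13, 8.01 and 7.33 CPM, with no overlap (4.12 ± 0.36). Gstm7, a glutathione transferase, was at 184, 37.1 and 185 against 4.95, 1.72 and 7.33 CPM, and diestrus replicate 4 was far below the other two. Wfdc1, a secreted protein with a whey acidic protein fold, was among the most even, at 148, 184 and 166 against 21, 20.02 and 21.1 CPM (3.0 ± 0.24, adjusted p = 7.96e-06). Osr2, a zinc finger transcription factor, was as even, from 32.8, 24.6 and 27.5 CPM in estrus to 145, 146 and 149 in diestrus (2.38 ± 0.18). Pfn2 (actin binding), Clcn5 (a chloride exchanger of endosomes), Zmpste24 (the protease of prelamin A), Rhob and the mitochondrial chaperonin Hspe1 were also among the genes with the smallest p, with differences of 2.73, 1.88, 1.66, 1.16 and 1.24.

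**Figure D2:**
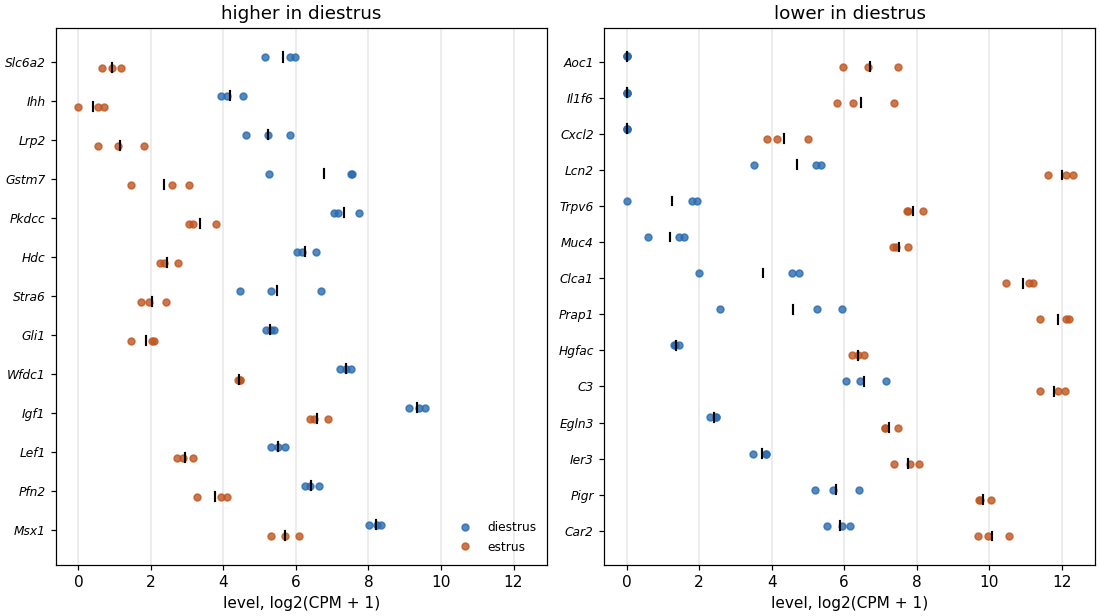
Levels of 27 named genes in single uteri, as log2(CPM + 1), with 1 point per uterus and a black tick at the mean of the 3 log values. In each of the 13 genes on the left and the 14 on the right, the 3 diestrus points lie apart from the 3 estrus points. Named genes were picked by groups that do not overlap or by small p, so this separation follows from the choice.

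Among the hormone receptors, Esr1, which encodes estrogen receptor alpha, measured 252, 222 and 216 CPM in diestrus and 207, 254 and 242 in estrus, and was not called (-0.03 ± 0.15, adjusted p = 0.921). Its sign turned with library totals as the scaling (0.04) and without single libraries, such as estrus replicate 4 (0.07). Pgr, the progesterone receptor, was higher in diestrus, at 307, 164 and 173 against 77.9, 71.5 and 81.1 CPM (1.48 ± 0.28, adjusted p = 0.00212). Fkbp4, a co-chaperone of the progesterone receptor, was at 263, 190.3 and 248 against 141, 91.5 and 124 CPM (0.98 ± 0.18). Hsd11b2, which inactivates glucocorticoids, rose further, from 54.4, 12 and 27.5 CPM in estrus to 305, 244 and 223 in diestrus (3.05 ± 0.59, adjusted p = 0.00261). Lower in diestrus were the coactivator Ncoa3 (-1.05), the transcriptional cofactor Cited2 (-1.11) and the 17-beta hydroxysteroid dehydrogenase Hsd17b11 (-1.62). In all, 6 of 21 tested receptors, cofactors and steroid enzymes were called higher and 6 lower. The count of higher genes was 3 without diestrus replicate 5 or estrus replicate 5. Greb1, a textbook estrogen target, was not called (31.4, 14.8 and 11.9 against 17.3, 25.7 and 33 CPM; -0.39 ± 0.37, adjusted p = 0.49).

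Genes listed as progesterone-induced in the uterus were called in 1 direction only, higher in diestrus, and 4 of them belong to the hedgehog relay. This list and the others were written with earlier results of these data known, so their counts are a description only. Ihh (ENSMUSG00000006538, chromosome 1, 74945315 to 74951672), the epithelial ligand, measured 16, 14.3 and 22.1 CPM in diestrus and 0.619, 0 and 0.458 in estrus, where the 3 libraries together held 2 counts, a ratio of 47.9 (95% counting interval 12.9 to 401; adjusted p = 8.24e-05). Ptch1, its receptor and also a target of the pathway, was at 51.4, 52.9 and 56.6 against 4.95, 6.86 and 13.7 CPM (2.59 ± 0.46). Gli1, the transcription factor that reports pathway activity, was at 38.9, 41 and 35.1 against 3.09, 1.72 and 3.21 CPM (3.8 ± 0.32, adjusted p = 1.1e-05). Hhip, which binds and restrains hedgehog ligands, was at 16, 18.3 and 11.9 against 0, 0.572 and 0.458 CPM. Every diestrus value of these 4 genes lay above every estrus value, but groups did not overlap in 2718 of the 2744 called genes.

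Several transcription factors of stroma and epithelium that act downstream of progesterone differed in the same direction. The first 3 below are also stromal fibroblast markers, of which 5 of 20 were higher and 2 lower (median 0.53; 8 higher without metestrus replicate 5), with a summed level of 9074 to 11781 CPM in diestrus and 9528 to 9792 in estrus. The part of the amount of stroma in these differences was not tested. Hoxa10 measured 327, 369.8 and 363 CPM in diestrus and 103, 101 and 91.6 in estrus (1.84 ± 0.19, adjusted p = 3.58e-05), and Hoxa11 72.3, 89.5 and 64 against 13.6, 16 and 12.4 (2.43 ± 0.31). Hand2, a stromal factor that restrains epithelial growth, differed by 1.13 ± 0.26 and Sox17, expressed in epithelium and endothelium, by 1.59 ± 0.15. Hdc (ENSMUSG00000027360, chromosome 2, 126593667 to 126619299), the enzyme that makes histamine, was at 70.3, 92.4 and 64.5 against 3.71, 5.72 and 4.12 CPM (4.05 ± 0.48, adjusted p = 0.0001). Aoc1, the histamine-degrading enzyme described above, differed in the opposite direction. Fst, follistatin, which binds activins, was higher but uneven within diestrus, at 46.4, 92.4 and 11.9 against 1.86, 1.14 and 2.75 CPM (4.63 ± 1.07; adjusted p = 0.00726, and 0.143 with limma-voom). Of the 33 genes listed as progesterone-induced, 29 passed the filter on low counts, 17 were called higher and 0 lower (median 1.18). The higher count was 12 without estrus replicate 3, 13 with limma-voom and 8 among genes with a mean of at least 50 counts. Areg and Calca, which mark the progesterone response of the epithelium before implantation, did not pass that filter, and Nr2f2 was not called (0.39 ± 0.17).

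Most genes of the estrogen response were lower in diestrus. Of 36 tested genes listed as estrogen-induced, 24 were lower in diestrus and 2 higher, with a median of -2.52, or -2.55 with its 4 genes of 3 or fewer counts in a stage at their bound or count ratio, and without any 1 library the lower count stayed between 22 and 25. The 2 exceptions were Igf1, at 556, 750.4 and 665 CPM in diestrus against 118, 82.9 and 88.8 in estrus (2.77 ± 0.41, adjusted p = 0.000461), and Ccnd1, cyclin D1 (1.18 ± 0.22). Both are known as early targets of estrogen, and of the 4 stages both had their lowest mean in estrus here.

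Secreted antimicrobial and defence proteins, products of the epithelium and glands under estrogen, were lower in diestrus for 14 of 21 tested genes and higher for 0 (median -2.83, or -1.56 with no filter on low counts; 32 genes were listed). Lcn2 (ENSMUSG00000026822, chromosome 2, 32384633 to 32388252), lipocalin 2, which withholds iron from bacteria, measured 36.4, 10.4 and 40.2 CPM in diestrus and 3159, 4406 and 5089 in estrus (-7.19 ± 0.96, adjusted p = 0.000236). Ltf, lactoferrin, was at 109, 17.8 and 147 against 2463, 2234 and 4069.7 CPM (-5.01 ± 1.0). Pigr, which carries secretory antibodies across epithelium, was at 83.3, 35.6 and 50.9 against 854, 846 and 1064 CPM (-4.02 ± 0.41, adjusted p = 3.71e-05), and the membrane mucin Muc4 at 1.99, 0.494 and 1.7 against 163, 214 and 173 (-6.98 ± 0.58). Diestrus replicate 4 held the lowest value of Lcn2, Ltf and Pigr. Chil1, a chitinase-like lectin, varied within estrus, from 20.4 CPM in replicate 3 to 343 in replicate 4 (-7.65 ± 1.14; adjusted p = 0.000474, and 0.198 with limma-voom). Prap1, an acidic protein secreted by the uterus, fell from 4413, 2712 and 4717 CPM to 60.3, 4.94 and 37.4 (-6.85 ± 1.16). Gland genes were called in both directions, with 3 of 10 tested lower, Prap1 and Gpx3 among them, and 2 higher. Their called share was 50%, against 22.8% over all genes. The median was -0.62, and its sign changed in 11 of the alternative fits. Higher in diestrus were the gland products Cxcl15 (41.9, 34.6 and 17.5 against 3.09, 1.72 and 0.458 CPM; 4.2 ± 0.69) and Bpifb5 (28.4, 5.93 and 19.8 against 2.47, 0 and 0.458 CPM; 4.21 ± 0.8, adjusted p 0.00237, or 0.0644 with limma-voom).

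Small proline-rich proteins, cross-linked into the envelope of stressed or cornified epithelium, were lower in diestrus. Of the 32 genes listed for stratified or cornified epithelium 9 passed the low-count filter, which a gene could pass through its estrus level alone, so their 8 lower calls do not describe the list. The sum over all 32 was 104 to 152 CPM in diestrus and 3040.4 to 3531 in estrus. Sprr2f measured 121, 118 and 69.6 CPM in diestrus against 2414, 2427 and 2680.1 in estrus (-4.61 ± 0.74), Sprr2g 5.98, 4.45 and 4.53 against 42.1, 28.6 and 63.2 (-3.15 ± 0.36) and Sprr1a 0, 0 and 1.13 against 16.1, 37.8 and 40.3. The called members were all Sprr genes. Keratins and cadherins that define a stratified epithelium, such as Krt5, Krt6a and Dsg1a, had 0 counts in all 6 libraries, and Krt14 and Trp63 did not pass the low-count filter.

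Markers of the simple epithelium were also lower, with 24 of 34 lower, 1 higher and a median of -1.33. Krt8 was at 127, 117 and 176 against 341, 384 and 335 CPM (-1.34 ± 0.29) and Epcam at 142, 111 and 215 against 316, 454 and 418 (-1.34 ± 0.26). Prom1 differed by -3.32 ± 0.2, the epithelial transcription factor Elf3 by -3.96 ± 0.42, and the membrane proteases Tmprss4 and St14 by -3.13 ± 0.18 and -2.31 ± 0.25. The exception was the homeobox gene Msx1, which rose from 50.7, 66.9 and 38.5 CPM in estrus to 298, 259 and 322 in diestrus (2.5 ± 0.37, adjusted p = 0.00045). Summed over the 35 listed genes the level was 1397 to 1690 CPM in diestrus and 3167 to 3931 in estrus, and the part of a changed epithelial share in the lower levels of single epithelial genes was not tested.

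Fluid, calcium and anion transport genes were lower more often than higher, with 10 of 25 tested genes lower and 1 higher. Trpv6 (ENSMUSG00000029868, chromosome 6, 41620624 to 41636405), an epithelial calcium channel, stood at 2.49, 0 and 2.83 CPM in diestrus and 288, 216 and 212 in estrus (-7.05 ± 0.49, adjusted p = 3.08e-06), while Calb1, the calcium-binding calbindin, was abundant in both stages and not called (1650.2, 1145 and 1635 against 1824, 1079 and 1066; 0.16 ± 0.21). Car2, carbonic anhydrase 2, was at 70.3, 59.8 and 45.3 against 828, 1005 and 1493 CPM (-4.24 ± 0.45), and Clca1, a secreted regulator of chloride channels, at 25.9, 2.97 and 22.6 against 2183, 1420.2 and 2349.9 (-6.86 ± 1.09). The sodium pump subunit Atp1b1 was higher in diestrus, at 140.1, 220.5 and 122 against 74.2, 74.4 and 86.6 CPM (1.04 ± 0.25).

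Neutrophil-attracting chemokines and targets of the transcription factor NF-kappaB were lower in diestrus. Their promoters are printed here because several hold the same NF-kappaB match. Cxcl2 had 0 counts in diestrus and 16.7, 30.9 and 13.7 CPM in estrus (at least 38.6-fold lower, adjusted p = 0.000337), and Cxcl1 0 counts against 9.28, 21.7 and 5.95 CPM (at least 23-fold, adjusted p = 0.00093). Nfkbia, the inhibitor that NF-kappaB itself induces, was at 127, 127 and 112 against 280.2, 304 and 315 CPM (-1.3 ± 0.14, adjusted p = 5.74e-05). The search used GGGA, any base, TTTCC, or GGGG followed by ATTTCC, on both strands, in the 250 bases before each RefSeq start (GRCm38.p6). A match was found in 5 of 26 promoters of the tested genes of this list (19.2%) and in 0.451% of all 32851 promoters. The share was 0.479% over all tested genes, 0.886% for genes called lower and 0.0864% for genes called higher. The 5 belonged to Cxcl1, Cxcl2 and Nfkbia, called lower, and to Csf1 and Nfkb2, which were not called. Sequences run 5' to 3' on the strand of the gene, with the match in capitals, and the windows are chr5:90890995-90891244 (Cxcl1, plus strand, match at position -71 from the start), chr5:90903649-90903898 (Cxcl2, plus strand, -97) and chr12:55492648-55492897 (Nfkbia, minus strand, -29).
Cxcl1: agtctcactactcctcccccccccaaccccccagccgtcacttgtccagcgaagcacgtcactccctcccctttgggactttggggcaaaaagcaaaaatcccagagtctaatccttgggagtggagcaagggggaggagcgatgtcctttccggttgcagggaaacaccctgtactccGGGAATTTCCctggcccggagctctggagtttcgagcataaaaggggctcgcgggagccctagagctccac
Cxcl2: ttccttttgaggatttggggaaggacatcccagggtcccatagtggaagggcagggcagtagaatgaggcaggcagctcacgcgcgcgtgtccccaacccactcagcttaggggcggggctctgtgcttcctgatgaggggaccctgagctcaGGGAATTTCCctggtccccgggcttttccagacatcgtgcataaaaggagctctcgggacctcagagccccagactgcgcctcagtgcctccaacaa
Nfkbia: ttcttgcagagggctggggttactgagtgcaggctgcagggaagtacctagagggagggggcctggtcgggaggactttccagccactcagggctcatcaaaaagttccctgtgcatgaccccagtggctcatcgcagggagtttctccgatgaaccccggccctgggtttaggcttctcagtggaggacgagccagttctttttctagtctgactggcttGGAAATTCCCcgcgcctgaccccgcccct

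Of the 49 genes in that list 32 passed the low-count filter, which a gene could pass through its estrus level alone. Among these 18 were lower in diestrus and 1, the gland chemokine Cxcl15, was higher (median -1.06). The lower count was 6 among genes with a mean of at least 50 counts. The sum over all 49 was 927 to 1147 CPM in diestrus and 1809 to 2552 in estrus. Ier3, a survival gene induced by NF-kappaB, measured 13.5, 13.3 and 10.2 CPM against 165, 267 and 224 (-4.13 ± 0.24). Ptgs2, the inducible cyclooxygenase, was at 1.99, 0 and 1.7 against 34.6, 65.8 and 27.9 CPM (-5.06 ± 0.56), Cxcl5 at 0.499, 0 and 2.26 against 32.2, 115 and 34.8 (-6.02 ± 0.81) and the mucosal chemokine Cxcl17 at 8.97, 7.91 and 13 against 191, 229.9 and 342 (-4.68 ± 0.51). In each of these genes the highest diestrus value lay below the lowest estrus value, and groups of nearly all called genes likewise did not overlap. Immediate early genes, which growth factors and tissue handling induce quickly, were lower for 9 of 20 and higher for 0, led by Ier3, Fosl2 (-1.81), Btg2 (-1.38) and Klf4 (-1.46).

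Complement and interferon genes were lower in diestrus as well. C3, the central complement protein and an estrogen target, was at 85.7, 64.8 and 142 against 4352, 2689 and 3795 CPM (-5.21 ± 0.84, adjusted p = 0.00081). Cfi, a complement inhibitor, was at 10.5, 3.46 and 12.5 against 84.7, 172 and 218 CPM (-4.18 ± 0.55), and Cd55, which protects cells from complement, at 29.9, 33.1 and 34 against 85.4, 98.4 and 126 (-1.68 ± 0.18). Of 20 tested complement genes, 9 were lower and 0 higher (median -0.7). In the list of MHC and interferon response genes, 20 of 36 were lower and 0 higher (median -0.7). H2-T23, a non-classical class I molecule, was at 34.4, 31.1 and 29.4 against 94, 139.6 and 128 CPM (-1.93 ± 0.24), and the antiviral gene Oasl2 at 18.9, 17.3 and 10.2 against 40.2, 81.8 and 62.7 (-1.98 ± 0.33). The interferon gene Ifit1 varied most within estrus, from 19.8 CPM in replicate 3 to 75.5 in replicate 4 (-2.65 ± 0.54). Without estrus replicate 4, and also without diestrus replicate 5, the MHC and interferon list had 12 lower calls.

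Markers of resident leukocytes were read beside these genes. For macrophages and myeloid cells 11 of 22 tested markers were lower and 0 higher (median -0.78), and the sum of the 25 listed markers ran from 812 to 1134 CPM in diestrus and from 1444 to 1636 in estrus. Csf1r, the receptor that macrophages depend on, was at 74.3, 67.7 and 91.1 against 124, 163 and 146 CPM (-0.89 ± 0.18), Mrc1 at 35.9, 38.1 and 33.4 against 109, 86.9 and 78.3 (-1.35 ± 0.28), and Cd14, the lipopolysaccharide co-receptor, at 21.4, 22.7 and 17.5 against 92.2, 117 and 146 (-2.52 ± 0.24). The lower count was 7 without diestrus replicate 3 or 4 or estrus replicate 4 or 5. Of 18 neutrophil genes only 7 passed the filter. Defining granule genes such as Mpo, Elane and Ly6g were among those below it, and Ltf, which epithelium also makes, held most of the summed signal in estrus (sums of 2338 to 4119 CPM in estrus and 132 to 286 in diestrus). Of the 7 tested, 1 was called higher in diestrus, Hdc, given above among the progesterone-induced genes, and 2 lower, Ltf among them. For eosinophils 1 of 10 markers was testable, and Epx and Ear2 had 0 counts in all 6 libraries. Among lymphocyte markers 2 of 12 tested were lower and 0 higher, 16.7% called against 22.8% over all genes. Ighm, the heavy chain of immunoglobulin M, was even within stages, at 39.9, 40.5 and 31.1 against 79.8, 77.2 and 84.7 CPM (-1.11 ± 0.24, adjusted p = 0.00531). Cd79b of the B cell receptor was near the floor in diestrus (1.99, 0.494 and 1.7 against 8.04, 3.43 and 5.5 CPM; -1.97 ± 0.61, adjusted p = 0.0322), and its call was lost without diestrus replicate 3 or 4 or 5 or estrus replicate 3 or 5 (adjusted p 0.0562 to 0.127). Other antibody transcripts set 1 library apart. Igkc measured 1203 CPM in estrus replicate 5 and between 12.5 and 202 in the other 5 libraries, and Jchain 264 against at most 58.8, and neither Igkc nor Jchain was called. Macrophage markers moved with the chemokine, complement and interferon genes, and their part in those differences was not tested.

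Nearly all mitotic genes lay higher in the diestrus uteri, and few of them were called. The summed level of the 47 listed mitotic genes was 1599.8 to 1673 CPM in diestrus and 831 to 999 in estrus. All 3 diestrus values lay above all 3 estrus values for 41 of 45 tested members, against 20.6% of all tested genes, and the median difference was 1.31. Only 5 were called. The fit shares its estimate of spread with the metestrus uteri, whose mitotic sums ran from 802 to 2645 CPM. Fitted on the 6 uteri alone, 33 were called, and without metestrus replicate 5, 6 or 7 19, 23 and 9, whereas leaving out 1 of the 6 uteri left 1 to 3. Ccna2, cyclin A2, was called in each of those fits, at 25.4, 38.1 and 37.9 CPM in diestrus against 12.4, 11.4 and 10.1 in estrus (1.58 ± 0.35, adjusted p = 0.00587). Top2a, topoisomerase II alpha, was at 78.8, 111 and 92.3 against 24.1, 24 and 29.8 CPM (1.85 ± 0.59, adjusted p = 0.0362) and Ccnb2, cyclin B2, at 14, 14.3 and 12.5 against 5.57, 5.15 and 4.12 (1.46 ± 0.46, adjusted p = 0.0346). Both lost the call without any 1 of the 6 uteri (adjusted p 0.0594 to 0.1 for Top2a and 0.0624 to 0.114 for Ccnb2). Mki67, the proliferation antigen, was not called (74.3, 62.3 and 56 against 41.4, 34.9 and 30.2 CPM; 0.86 ± 0.62, adjusted p = 0.35).

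Mitotic genes share 2 promoter elements, the cell cycle homology region (TTTGAA) and the NF-Y box (CCAAT), and the windows of Top2a and Ccnb2 are shown because both genes were called and hold the first. TTTGAA on either strand was found in 17 of 39 promoters of the mitotic list (43.6%) against 16% of all promoters, and CCAAT in 82.1% against 33.8%. Among all tested genes the shares were 10.7% and 34.7%, and among those called higher in diestrus 11.5% and 38.2%. Capitals mark TTTGAA or its reverse complement in chr11:99024190-99024439 (Top2a, minus strand) and chr9:70421555-70421804 (Ccnb2, minus strand).
Top2a: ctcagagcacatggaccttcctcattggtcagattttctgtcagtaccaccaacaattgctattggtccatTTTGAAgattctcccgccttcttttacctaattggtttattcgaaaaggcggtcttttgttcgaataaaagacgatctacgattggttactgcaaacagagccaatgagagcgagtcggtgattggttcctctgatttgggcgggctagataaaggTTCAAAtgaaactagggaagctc
Ccnb2: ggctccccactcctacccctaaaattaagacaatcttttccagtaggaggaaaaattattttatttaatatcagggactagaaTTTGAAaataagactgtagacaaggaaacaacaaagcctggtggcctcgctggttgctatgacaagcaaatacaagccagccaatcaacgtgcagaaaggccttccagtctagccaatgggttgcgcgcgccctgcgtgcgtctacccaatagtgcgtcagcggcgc

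Genes of DNA replication were called more often, 15 of 43 higher and 1 lower, with a median of 0.94. The count was 9 without estrus replicate 5 and 23 without metestrus replicate 6. Dut, which keeps uracil out of DNA, was at 64.8, 60.3 and 56 against 11.8, 11.4 and 16.9 CPM (2.15 ± 0.31, adjusted p = 0.000437). The helicase subunits Mcm2 and Mcm3 were at 18.4, 14.3 and 21.5 against 3.09, 7.44 and 5.04 CPM (1.78 ± 0.34) and 25.4, 18.3 and 19.8 against 5.57, 5.72 and 6.41 (1.83 ± 0.24), and Pcna, the sliding clamp, at 84.3, 78.6 and 86 against 41.4, 50.3 and 44 (0.87 ± 0.18). A member that went against the list was Cdc45, which loads with the same helicase and was lower in diestrus, at 23.4, 30.2 and 18.7 against 108, 91.5 and 74.2 CPM (-1.91 ± 0.3, adjusted p = 0.000764).

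Inhibitors of the cell cycle and genes of growth arrest and apoptosis were lower in diestrus for 15 of 33 and higher for 0 (median -0.69). Cdkn1a, which encodes the CDK inhibitor p21, was at 17, 12.4 and 13.6 against 46.4, 57.8 and 67.3 CPM (-2.0 ± 0.21, adjusted p = 4.44e-05). The antiproliferative gene Btg1 was at 138, 165 and 138 against 376, 416 and 370.1 CPM (-1.4 ± 0.18), Txnip, which restrains glucose uptake, at 155, 207 and 166 against 703, 685 and 769.9 (-2.03 ± 0.27), and the death ligand Tnfsf10 at 7.98, 10.9 and 8.49 against 42.1, 49.2 and 38.9 (-2.24 ± 0.2). No diestrus value of these 4 genes reached an estrus value, which sets them apart from few other called genes.

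Genes that low oxygen induces through HIF1A, and with them glycolytic enzymes, were lower in diestrus for 23 of 32 tested members and higher for 2 (median -0.7). Egln3 (ENSMUSG00000035105, chromosome 12, 54178981 to 54203860), the oxygen-sensing prolyl hydroxylase that feeds back on HIF1A, measured 4.49, 3.95 and 4.53 CPM in diestrus and 137, 177 and 138 in estrus (-5.1 ± 0.57, adjusted p = 5.93e-05). Hexokinase 2, Hk2, was at 12.5, 14.8 and 19.8 against 86.6, 102 and 76.9 CPM (-2.5 ± 0.22), and Ero1l, an endoplasmic reticulum oxidase that hypoxia induces, at 16.5, 15.3 and 17 against 101, 118 and 81.5 (-2.62 ± 0.22, adjusted p = 1.09e-05). Ankrd37 was at 0, 0.494 and 1.7 against 11.1, 15.4 and 21.5 CPM (-4.41 ± 0.69). Hif1a itself went the other way, at 171, 186 and 153 against 93.4, 111 and 111 CPM (0.69 ± 0.14, adjusted p = 0.00335). The glycolytic enzyme Tpi1 differed less (-0.46 ± 0.12), and its call was lost without diestrus replicate 4 (adjusted p = 0.0506) or estrus replicate 5 (0.0552).

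The core of the hypoxia response element, ACGTG on either strand, was searched for after these values had been seen. It was found in 20 of 43 promoters of the list (46.5%), against 21.3% of those of all tested genes and 16.6% of all promoters. The share was 18.7% for genes called lower and 22.2% for genes called higher. Both members of the list called higher in diestrus, Hif1a and P4ha2 (1 match), hold the core too. Hif1a had 3 matches, but overlapping matches on either strand were counted apart, and its CACGTG matched on each strand. P4ha2, a collagen prolyl hydroxylase, was at 19.4, 37.1 and 23.2 against 14.2, 13.7 and 11.9 CPM (1.01 ± 0.33, adjusted p = 0.0427), a call lost without diestrus replicate 4 or 5 or estrus replicate 3 or 4 or 5 or proestrus replicate 1 or 2 or 3 (adjusted p 0.0519 to 0.179). The core is part of the longer motif CACGTG, which other factors bind. The windows of Egln3, Hk2 and Ankrd37, 3 of the lower members that hold it, are chr12:54203875-54204124, chr6:82774455-82774704 and chr8:45999851-46000100, each on the minus strand, with the matches in capitals.
Egln3: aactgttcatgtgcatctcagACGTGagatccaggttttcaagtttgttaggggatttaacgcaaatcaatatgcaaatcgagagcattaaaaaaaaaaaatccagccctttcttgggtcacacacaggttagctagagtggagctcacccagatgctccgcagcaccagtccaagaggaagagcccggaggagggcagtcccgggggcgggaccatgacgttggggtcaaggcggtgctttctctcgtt
Hk2: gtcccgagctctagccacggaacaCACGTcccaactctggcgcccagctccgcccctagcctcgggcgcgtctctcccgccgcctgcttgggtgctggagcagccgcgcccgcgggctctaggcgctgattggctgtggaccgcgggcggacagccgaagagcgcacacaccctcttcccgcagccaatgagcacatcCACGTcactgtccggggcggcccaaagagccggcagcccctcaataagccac
Ankrd37: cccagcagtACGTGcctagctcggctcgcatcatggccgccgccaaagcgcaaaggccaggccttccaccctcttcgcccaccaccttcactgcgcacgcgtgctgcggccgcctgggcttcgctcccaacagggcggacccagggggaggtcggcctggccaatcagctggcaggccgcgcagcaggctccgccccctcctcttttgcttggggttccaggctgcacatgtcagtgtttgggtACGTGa

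Genes that build ribosomes were higher in diestrus, while ribosomal protein genes were not called. Of 35 nucleolar and translation factors 20 were higher and 1 lower (median 0.59), and 14 to 22 were higher when 1 library was left out. Nop56, a core protein of the complex that methylates ribosomal RNA, was at 175, 167 and 205 against 56.3, 77.2 and 68.2 CPM (1.44 ± 0.17, adjusted p = 9.32e-05). Nop58 from the same complex was at 279.7, 272 and 284 against 131, 119 and 123 (1.16 ± 0.15), and Dkc1, the pseudouridine synthase, at 113, 103 and 104 against 36.5, 41.2 and 44.9 (1.38 ± 0.18). Ncl, nucleolin, was at 946, 916 and 1021 against 602, 635 and 575 CPM (0.67 ± 0.13). The exception was Eif4ebp1, a repressor of translation, lower in diestrus (-0.7 ± 0.22, adjusted p = 0.0345), a call lost without any 1 of 5 of the 6 uteri (adjusted p up to 0.135). Of 77 tested cytosolic ribosomal protein genes edgeR called 0 (1 at an unadjusted p under 0.05, 0 called by DESeq2 and 0 by limma-voom), with a median of 0.17 and a range of -0.26 to 0.69.

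Nuclear genes of oxidative phosphorylation differed less, with a median of 0.28. They were called in 20% of cases, against 22.8% over all genes (9.72% higher), and 11 of 55 were higher and 0 lower. Leaving out 1 library moved that count between 4 (without diestrus replicate 5 or estrus replicate 5) and 17 (without metestrus replicate 6 or 7). Cox6c led them, at 677, 749 and 815 against 339, 277 and 326 CPM (1.25 ± 0.14, adjusted p = 7.78e-05), followed by Cycs, cytochrome c (0.93 ± 0.18), and Atp5g1 of ATP synthase (0.75 ± 0.16). Sterol and fatty acid enzymes were split, with 6 of 35 higher and 3 lower (2 and 1 without estrus replicate 5, and 3 higher without diestrus replicate 5 or estrus replicate 3). The called share of 25.7% was close to the 22.8% over all genes. Dhcr7, an enzyme of the last steps of cholesterol synthesis, was higher (9.97, 12.4 and 8.49 against 2.47, 2.29 and 3.21 CPM; 1.91 ± 0.36). Folding factors of the endoplasmic reticulum were called in 6 of 42 cases, each lower, a share of 14.3% close to the 13% over all genes. Without any 1 of the 6 uteri 1 to 2 were called. Hsp90b1 and Calr, 2 abundant chaperones, were not called (-0.11 ± 0.24 and -0.26 ± 0.19).

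Growth factors, their receptors and binding proteins were called in 2 cases higher and 6 lower of 31 tested, a share close to the 22.8% over all genes, and the following are single members. Igf1 was higher in diestrus, as given above, and its receptor Igf1r lower, at 64.8, 75.6 and 74.1 against 203, 244 and 186 CPM (-1.56 ± 0.23, adjusted p = 0.000392). Igfbp4, a binding protein that limits IGF action, was at 1862, 1482 and 2206 against 535, 639 and 615 CPM (1.63 ± 0.2). Met, the receptor for hepatocyte growth factor, was at 8.97, 6.92 and 11.9 against 52.6, 41.8 and 55.4 CPM (-2.43 ± 0.24), and Hgfac, the protease that activates its ligand, at 1.5, 1.48 and 1.7 against 82.9, 73.2 and 91.6 (-5.67 ± 0.45, adjusted p = 7.96e-06). The EGF family ligand Hbegf was lower in diestrus (-1.73 ± 0.37), as was the receptor Erbb3 (-2.06 ± 0.42).

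In the activin and BMP family the antagonist follistatin was higher, as given above, and the activin subunit gene Inhbb lower, at 22.9, 5.93 and 1.7 against 76.1, 77.8 and 61.8 CPM (-2.78 ± 0.69, adjusted p = 0.0105). Gdf10 was at 100.2, 69.2 and 121 against 19.8, 34.3 and 38.5 CPM (1.63 ± 0.24), Bmp7 at 30.4, 29.2 and 64.5 against 6.8, 17.7 and 16 (1.58 ± 0.37), and Id1, a target of BMP signalling, at 46.4, 44.5 and 41.9 against 16.1, 17.2 and 21.1 (1.28 ± 0.19). In all 8 of 34 tested genes of this family were higher and 2 lower. The called share was 29.4%, against 22.8% over all genes, and 5 were higher without estrus replicate 3. Among WNT genes the nuclear effector Lef1 was higher, at 38.9, 44.5 and 50.9 against 5.57, 8.01 and 6.41 CPM (2.73 ± 0.38, adjusted p = 0.000283), and the enhancer of WNT signalling Rspo3 lower, at 83.3, 100.3 and 133 against 259, 251 and 213 (-1.19 ± 0.24).

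Retinoid and antioxidant genes (8 of 38 higher, 10 lower) and prostaglandin genes (4 of 20 higher, 4 lower) were called in both directions. The higher count of the first list was 5 without diestrus replicate 3 or 4 or estrus replicate 3 and 4 without diestrus replicate 5 or estrus replicate 5. Stra6, the membrane receptor for retinol uptake, was at 38.9, 20.8 and 102 against 4.33, 2.86 and 2.29 CPM (4.09 ± 0.56, adjusted p = 0.000274), with diestrus replicate 5 highest. Dhrs9 and Rdh10, which oxidise retinol, were lower in diestrus (-3.98 ± 0.53 and -1.25 ± 0.28). Among prostaglandin genes, Ptgs2 and the prostacyclin synthase Ptgis (79.8, 54.9 and 75.3 against 175, 169 and 151 CPM; -1.24 ± 0.19) were lower, as was the degrading enzyme Hpgd (-1.02 ± 0.21). The receptor Ptgfr for prostaglandin F2 alpha was higher, at 12.5, 30.2 and 39.6 against 9.9, 4.58 and 2.75 CPM (2.29 ± 0.51), as was Akr1b3, an aldose reductase that can make that prostaglandin (0.86 ± 0.17). Among antioxidant enzymes Gpx3, a secreted glutathione peroxidase, was at 82.8, 93.4 and 78.1 against 544, 341 and 387 CPM (-2.32 ± 0.34) and Gsto1 at 205, 127 and 154 against 1113, 739.6 and 1095 (-2.6 ± 0.31).

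Matrix genes were called in both directions. The fibrillar collagens Col1a1 and Col3a1 were not called (0.44 ± 0.3 and 0.71 ± 0.33), and 9 of 34 tested collagen genes and their processing enzymes were higher and 1 lower. That higher count was 4 or 5 without diestrus replicate 4 or 5 or any estrus replicate. With all libraries 29.4% of the collagen list was called, against 22.8% over all genes. The collagen chaperone Serpinh1 was at 445, 524 and 501 against 238, 179 and 231 CPM (1.18 ± 0.22), and Col18a1 of basement membranes at 217, 220.0 and 216 against 113, 131 and 125 (0.83 ± 0.18). Vcan, versican, a large hyaluronan-binding proteoglycan, was at 63.8, 62.3 and 80.9 against 13.6, 11.4 and 9.16 CPM (2.61 ± 0.38, adjusted p = 0.000439), and Nid1, nidogen, at 329, 256 and 288 against 126, 131 and 119.5 (1.21 ± 0.27). The crosslinking enzymes split, with Lox lower at 34.9, 34.6 and 40.8 against 144, 197 and 165 CPM (-2.2 ± 0.22, adjusted p = 3.57e-05) and Loxl1 higher at 91.2, 89.97 and 128 against 42.1, 38.9 and 43.1 (1.32 ± 0.25). Decorin (Dcn), a small proteoglycan of collagen fibrils, was lower, at 2062, 1701 and 1465 against 3061, 3642 and 3489 CPM (-0.96 ± 0.17), as was periostin (Postn) at 121, 78.1 and 109 against 307, 311 and 337 (-1.63 ± 0.28). Spp1, osteopontin, was lower with a wide range in estrus (6.98, 2.47 and 7.36 against 42.1, 165 and 215 CPM; -4.66 ± 0.63). Over elastic, proteoglycan and matricellular genes 15 of 46 were higher and 8 lower, and 9 were higher without diestrus replicate 5 and 5 lower without estrus replicate 5.

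Proteases of the matrix and lysosome were lower for 11 of 32 (7 without diestrus replicate 4) and higher for 3. Mmp7, matrilysin, an epithelial metalloproteinase, was at 1.5, 0.989 and 3.4 against 77.9, 82.4 and 86.6 CPM (-5.38 ± 0.69, adjusted p = 0.000162), and Ctsl, cathepsin L, at 263, 262 and 265 against 1419.7, 2124 and 2031 (-2.82 ± 0.26, adjusted p = 1.69e-05). Ctsd, cathepsin D, went the other way (737, 1102 and 704 against 374, 344 and 387 CPM; 1.2 ± 0.21), as did the plasminogen activator Plat (1.65 ± 0.37) and the protease inhibitor Serpine2 (1.87 ± 0.27). Among smooth muscle genes Myh11, the muscle myosin, was at 1061, 745 and 1167 against 2179, 1901 and 1959 CPM (-1.02 ± 0.24) and Kcnmb1, a potassium channel subunit that limits contraction, at 49.4, 16.3 and 36.8 against 111, 105 and 81.1 (-1.53 ± 0.33). Oxtr, the oxytocin receptor, was also lower (12.5, 7.41 and 4.53 against 25.4, 25.7 and 27.9 CPM; -1.67 ± 0.4). In this list 8 of 31 were lower and 3 higher (4 and 1 without estrus replicate 4). Its summed level was 14937 to 15222 CPM in diestrus and 17527 to 21488 in estrus. The part of the amount of muscle in each dissected piece was not tested.

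**Figure D3:**
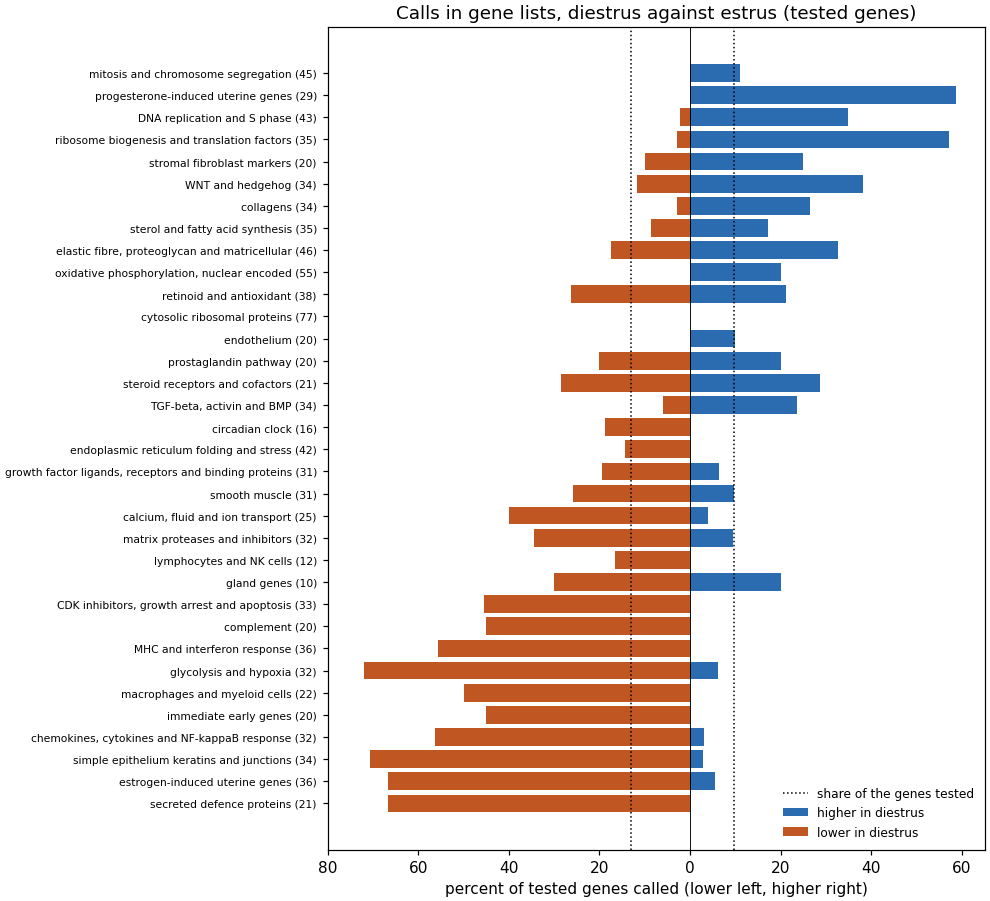
Percent of the tested genes of each list (number in brackets) that were called lower (left, orange) or higher (right, blue) in diestrus, for lists with at least 10 tested genes, sorted by their median difference. Dotted lines mark the shares over all tested genes, 13% lower and 9.72% higher.

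Markers of neighbouring tissue were testable in part. The mesothelium list had 6 of 8 markers testable, with 1 called higher and 1 lower in diestrus. Adipocyte markers were testable in 4 of 10 cases, with 1 called lower, and red blood cell markers in 3 of 7, with 0 called. Of 13 ovarian genes 2 passed the filter, and Cyp19a1, Fshr, Zp3 and Oosp1 had 0 counts in all 6 libraries. The transcription factor gene Foxl2, of the 2 testable members, was called higher in diestrus, at 32.4, 23.7 and 32.8 against 14.2, 18.9 and 13.7 CPM (0.92 ± 0.3, adjusted p = 0.038), a call lost without diestrus replicate 3 or 5 or estrus replicate 3 or 5 (adjusted p 0.104 to 0.123). Of 9 oviduct genes 4 passed, without the ciliary regulator Foxj1, and the sum of the list was 218 to 341 CPM in diestrus and 106 to 122 in estrus, carried by Tppp3 and Tubb4b, which other cells also express. Of 10 skeletal muscle genes 4 passed, while the myosins Myh1, Myh2 and Myh4 had 0 counts in the 6 libraries. The sum of that list was 143 to 225 CPM in diestrus and 70.4 to 138 in estrus. Its troponin gene Tnnt3 was called higher in diestrus, at 25.9, 22.2 and 45.8 against 13, 10.9 and 8.24 CPM (1.55 ± 0.44, adjusted p = 0.021), a call lost without diestrus replicate 5 or estrus replicate 4 or 5 (adjusted p 0.0553 to 0.0998). Of 16 tested clock genes 3 were called, each lower in diestrus, a share of 18.75% against 22.8% called over all genes. Bhlhe40, a gene that hypoxia also induces, led them at 14, 6.43 and 19.2 against 117, 142 and 126 CPM (-3.29 ± 0.47). The other 2 were Nr1d1 and Dbp (-1.01 ± 0.28 and -1.39 ± 0.44), whose calls were lost without diestrus replicate 4 or 5 or estrus replicate 4 or 5 (adjusted p up to 0.0861 and 0.177).

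**Figure D4:**
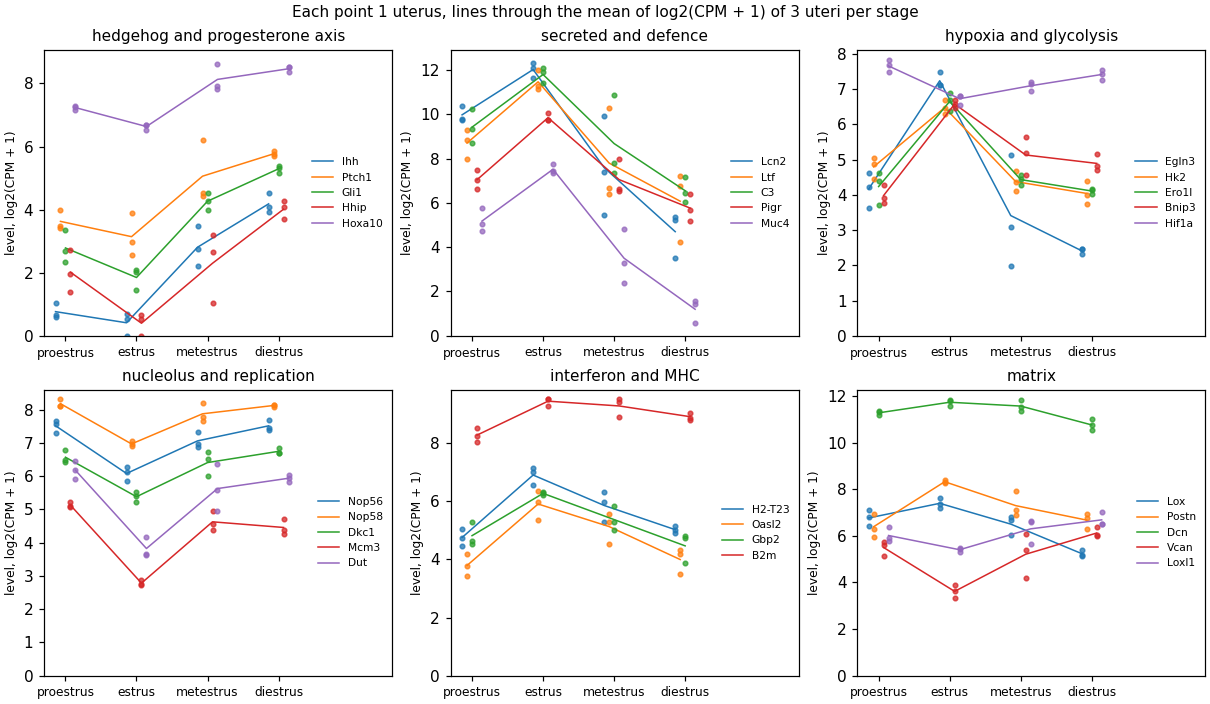
Levels of 29 genes in the 12 uteri in cycle order, as log2(CPM + 1), with 1 point per uterus and lines through the mean of each stage. Stage means of the hedgehog and nucleolar genes shown are lowest in estrus, and those of the secreted genes and of the hypoxia genes other than Hif1a are highest there.

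Metestrus and proestrus, the other pair of opposite stages, share no uterus with this comparison and were set beside it as a description. They differed in 519 genes, 4.31% of those tested. Of these, 275 were also called between diestrus and estrus (53% of the 519 and 10.02% of the 2744), 184 of them with diestrus and metestrus on the same side. The count of 519 moved with single libraries, from 78 without proestrus replicate 2 to 1080 without metestrus replicate 6. Over the 2744 genes called between diestrus and estrus, 51.5% had the same sign in both pairs, against 49.1% of all tested genes.

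List medians are set side by side here, diestrus minus estrus first. Progesterone-induced genes had medians of 1.18 and 1.13, and Ihh was at 6.48 ± 3.33 CPM in metestrus against 0.719 ± 0.313 in proestrus (mean ± SD, n = 3; log2 difference 3.05 ± 0.62, adjusted p = 0.0172). Estrogen-induced genes had medians of -2.52 and -0.8. Opposite signs were found for MHC and interferon genes (-0.7 and 0.91), complement (-0.7 and 0.83), macrophage markers (-0.78 and 0.73) and lymphocyte markers (-0.6 and 1.2). Of these, 10 of 36 MHC and interferon genes, 7 of 20 complement genes, 4 of 22 macrophage markers and 1 of 12 lymphocyte markers were called higher in metestrus. The part of the leukocyte markers in the complement and interferon values was not tested. Medians for DNA replication (0.94 and -0.49) and mitosis (1.31 and -0.74) also had opposite signs, but between metestrus and proestrus 0 of 43 replication genes and 1 of 45 mitotic genes were called by edgeR, and the mitotic sum of metestrus replicate 6 (2645 CPM) lay above all 3 proestrus sums. H2-T23, lower in diestrus than in estrus, was higher in metestrus than in proestrus (59.6 ± 20.8 against 26.4 ± 5.33 CPM; 1.18 ± 0.25, adjusted p = 0.0218), and so was Txnip (327 ± 144 against 131 ± 17.4 CPM; 1.32 ± 0.27, adjusted p = 0.0172). Lox, Egln3 and Ctsl, called lower in diestrus, were not called between metestrus and proestrus (-0.25 ± 0.21, -0.19 ± 0.54 and 0.1 ± 0.24).

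**Figure D5:**
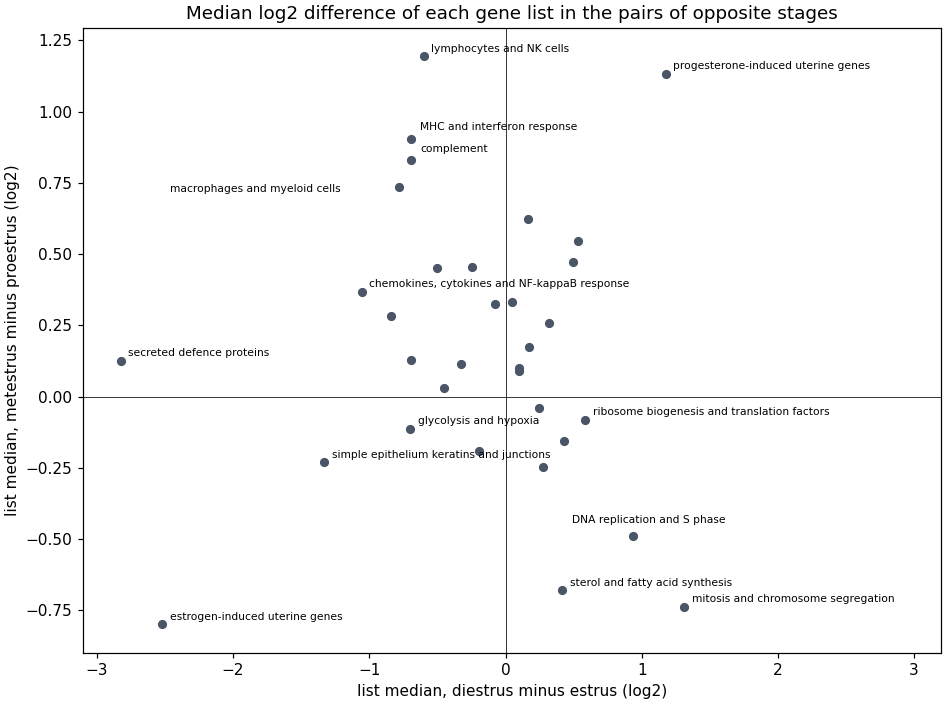
Each point is a list with at least 12 tested genes, placed by its median log2 difference between diestrus and estrus (x axis) and between metestrus and proestrus (y axis). Progesterone-induced genes lie at 1.18 and 1.13, and MHC and interferon genes at -0.7 and 0.91.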

How the data were processed

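RNA of 12 uteri (3 per stage, 100 ng of total RNA each) was prepared as 3' TagSeq libraries. The submitters' processing notes list kallisto, FastQC and DESeq2, and versions, strand use and the annotation are not given in the sources used here. Per the file headers, the deposited tables hold for each transcript its estimated count, TPM and effective length. Transcripts were assigned to genes with GENCODE M21 (GRCm38), estimated counts were summed per gene and rounded, and counts without a gene (0.671% to 0.735% of the 6 libraries) were left out. Genes were filtered with filterByExpr by stage, scaled by TMM and fitted with edgeR 4.0.16 (quasi-likelihood, R 4.3.3) on all 12 libraries. P-values were adjusted by Benjamini-Hochberg over 12052 genes. Fits with limma 3.58.1 and DESeq2 1.42.0, other scalings, filters and sample sets were alternatives. CPM are library counts over TMM-scaled totals, with a prior count of 2 in log2 CPM used for correlations. Bounds rest on a floor of 3 counts over the group, and intervals cover counting error only.

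The labels say that each stage was sampled as separate uteri, and p-values measure the spread between them. Replicate pairs of a stage differed beyond sampling noise, with a chi-square of 3.44 to 9.08 per gene. Named genes are those called with groups that do not overlap, at least 10 CPM in the higher stage and no predicted gene model, among the 12 with the largest change or the 12 with the smallest p in each direction; up to 6 called members of each list per direction; the 3 most abundant members of each list; and fixed hormone genes. Not every gene the rule admits is printed. The comparison, the lists and the named genes were chosen with earlier results of these data known. On simulated counts for 11778 genes, the fit recovered 47 of 100 genes changed by 2-fold and 91 of 100 changed by 4-fold, with 6 false calls. The simulation changed only genes above a minimum mean level and gave each gene the spread typical of its level. Recovery among genes below that level or with more spread of their own was not tested. Promoters came from RefSeq (GRCm38.p6) for 9274 of the 12052 tested genes by symbol, and 74.5% of the windows checked ended at or near an annotated GENCODE start.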

Additional observations from a re-analysis of the deposited data

How the results depend on the processing

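The 2744 calls became 2756 with DESeq2 size factors, 2632 with library totals, 2854 with no filter on low counts, 2528 with DESeq2 and 2716 with limma-voom. Counts scaled from TPM gave 2138 calls, and a filter at a mean of 50 counts, which tests fewer genes, gave 1811, of which 978 were lower in diestrus and 582 were at least 2-fold. The 6 uteri fitted alone gave 3242 calls, and with the replicate number as a block 2935. The labels do not say that those numbers mark a shared batch, litter or day. Deviations of uteri with the same number from their stage means correlated at -0.0433, 0.0131 and -0.0166, and whether the numbers pair the uteri was not tested. Leaving out 1 library gave 1910 to 3146 calls, with 794 to 1448 higher, 1079 to 1768 lower and 1244 to 1620 at least 2-fold. Between metestrus and proestrus the 519 calls became 935 with no filter and 269 with counts scaled from TPM, and 78 to 1080 without 1 library; the cause was not tested. Of the 154 named genes that were called, 137 were called under every alternative that tested them, and none reversed.

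Esr1 differed by 0.0367 with library totals and 0.0166 with no filter, and by -0.11 (without estrus replicate 3) to 0.0706 (without estrus replicate 4) without 1 library. Without estrus replicate 5, Igkc and Jchain differed by 0.44 and 0.84, against as low as -3.13 and -3.38 without diestrus replicate 4. A count of 3 was worth 1.37 to 1.86 CPM, and of the 2854 calls with no filter on low counts 2418 were among the 2744.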
